A study of Gallus gallus with 5 samples.

Results

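The genes described here encode chaperones of the cytosolic HSP70 system and subunits of the cytosolic chaperonin. They were measured by RNA-seq in DT40, a chicken B-cell lymphoma line. The 8 genes are HSPA8, HSPA2 and HSPA4 of the HSP70 system and TCP1, CCT2, CCT6A, CCT7 and CCT8 of the chaperonin. They were chosen by name, through the RefSeq transcript accession without its version, and each of the 8 was found among the 16143 features of the count files. The 2 libraries called CAP-H off here (titled CAP-H +dox, replicates 1 and 3) came from CAP-H KO cells given 100 ng/ml doxycycline for 36 h. The CAP-H on group holds 3 libraries (titled CAP-H -dox, replicates 1, 2 and 3) that came from CAP-H KO cells without doxycycline. The time given for these libraries is also 36 h. CAP-H is the kleisin subunit of condensin I, a complex that compacts chromosomes. Both groups carry the same KO background, and the labels do not say how doxycycline acts on CAP-H or whether the line is 1 clone. Doxycycline was given to the CAP-H off cells only, so an action of the drug itself and a loss of CAP-H cannot be told apart. The CAP-H gene NCAPH was matched to 0 rows by accession, so the group names were not checked against the targeted gene. Levels are CPM, the counts of a gene scaled to a common library total, after TMM scaling, and fold changes are CAP-H off over CAP-H on.

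HSP70 proteins bind short hydrophobic stretches of unfolded chains and release them in a cycle driven by ATP, which J-domain proteins start and nucleotide exchange factors reset. HSPA8 is the constitutive member that cells hold in large amounts, and HSPA4, of the HSP110 branch, acts as an exchange factor for it. The chaperonin, known as TRiC or CCT, is a double ring whose subunits are each made from a gene of their own and which folds actin and tubulin inside its chamber. Lymphoma cells divide fast and make much protein, so both systems are usually well expressed in such lines.

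Total counts ranged from 12199522 to 22533003 per library, which left counting error small for all 8 genes, since the lowest count of any of them was 243. Of 8 B-cell markers 7 were measured, each in all libraries, with a summed level of 832 and 880 CPM in the CAP-H off libraries and 1034 to 1069 CPM in the CAP-H on libraries. Of these markers 4 fell (IKZF1, BTK, CD74 and PAX5). Only SYK rose, a call lost with library size alone, and 2 did not pass (CD79B and EBF1). IKZF1 differed most, with 78.9 and 76.4 CPM in the CAP-H off libraries against 203 to 219 CPM in the CAP-H on libraries. The 4 measured T-cell markers summed to 103.5 and 104.4 CPM in the CAP-H off libraries, against 88.2 to 98.8 CPM in CAP-H on. Nearly all of this was CD3D, with 100.4 and 99.0 CPM against 84.9 to 96.2 CPM. CD4 was above the lowest count only in CAP-H off replicate 3 (2.71 CPM). Of the T-cell markers CD3D and CD8A were tested, and 0 passed. The 4 measured macrophage and granulocyte markers (MMP9, MPEG1, CTSS and CYBB) summed to 34.8 CPM in both CAP-H off libraries. They summed to 77.1 to 82.4 CPM in the CAP-H on libraries, and all 4 fell. The shares over all features tested were 22.6% that rose and 23.7% that fell. The part of these marker shifts in the results below was not tested, and in bulk RNA fewer cells of a type and less RNA per cell cannot be told apart.

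Of the 8 genes, 5 rose (HSPA8, HSPA2, TCP1, CCT6A and CCT7), 2 fell (HSPA4 and CCT2) and CCT8 did not pass. The groups did not overlap for any of the 8 genes, the CAP-H off libraries lying higher for 5 and lower for 3. Among all 10079 features tested 46.3% changed, 22.6% higher and 23.7% lower in the CAP-H off libraries, and the groups did not overlap in 64.9% (32.1% with CAP-H off higher and 32.9% with it lower). The median size of the log2 fold change was 0.24 over the 8 genes and 0.26 over all features, so changes of this size were ordinary in this comparison. The median signed change was 0.14 over the 8 genes and 0.00 over all features. With scaling by library size alone the median of all features stood 0.18 lower on the log2 scale, and under that scaling 2 of the genes rose (HSPA8 and HSPA2) and 3 fell (HSPA4, CCT2 and CCT8), where 12.6% of all features rose and 40.9% fell. Directions below are therefore relative to the typical feature.

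**Figure D1:**
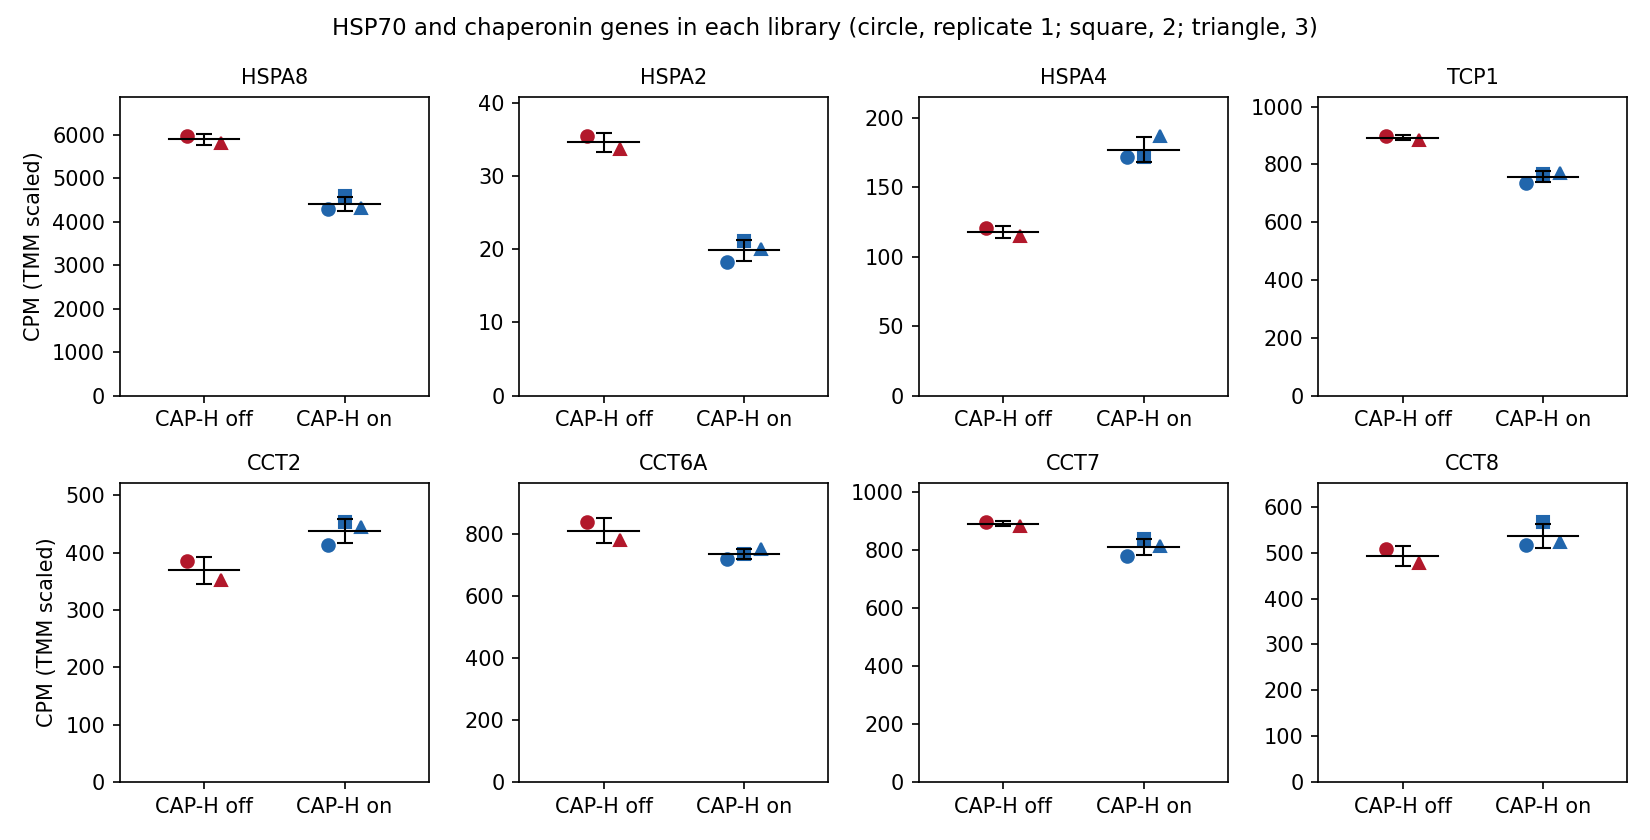
CPM after TMM scaling (y axis, linear from 0, a scale of its own for each gene) in the 2 CAP-H off libraries (red) and the 3 CAP-H on libraries (blue), with the group mean as a line and 1 SD as a bar. HSPA8 and HSPA2 sit clearly higher and HSPA4 clearly lower in the CAP-H off libraries, while the 5 chaperonin genes differ by less.

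HSPA8 was by far the most abundant of these transcripts. HSPA8 (NM_205003.2, galGal4 chromosome 24, 3069386 to 3074329) stood at 5986 and 5803 CPM in CAP-H off replicates 1 and 3, against 4306, 4595 and 4320 CPM in CAP-H on replicates 1, 2 and 3. Only 7 features had a higher mean CPM in the CAP-H off libraries and 5 in the CAP-H on libraries. The lowest CAP-H off library lay above the highest CAP-H on library. HSPA8 rose 1.34-fold, or by 0.42 in log2 units (SE 0.03; edgeR's quasi-likelihood test gave adjusted p = 1.1e-08), and it rose under every scaling and with each library left out in turn, between 0.39 and 0.45. The change was 0.24 (adjusted p = 1.7e-07) with library size alone.

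HSPA2, which the RefSeq table also lists under the name HSP70, had the largest change of the 8 genes. HSPA2 (NM_001006685.1, chromosome 5, 52783871 to 52786190) reached 35.5 and 33.6 CPM in CAP-H off replicates 1 and 3, against 18.2, 21.2 and 20.1 CPM in CAP-H on replicates 1, 2 and 3. Both CAP-H off libraries exceeded all 3 CAP-H on libraries. HSPA2 rose 1.75-fold (log2 fold change 0.81, SE 0.10, adjusted p = 1.3e-05), and by 0.63 with library size alone. HSPA8 nevertheless held 169 and 173 times the CPM of HSPA2 in the CAP-H off libraries and 215 to 236 times in the CAP-H on libraries. These ratios are not corrected for transcript length. HSPA2 and HSPA8 are close relatives in sequence, and how reads that match both were counted is not given in the sources used here.

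HSPA4 went the other way. HSPA4 (XM_414655.3, chromosome 13, 16530701 to 16547710) stood at 120.5 and 114.5 CPM in CAP-H off replicates 1 and 3, against 171, 172 and 187 CPM in CAP-H on replicates 1, 2 and 3. Both CAP-H off values lay below all CAP-H on values. HSPA4 fell by 0.59 in log2 units (SE 0.06, adjusted p = 1.5e-06), to 0.665 of the CAP-H on level, and by 0.77 with library size alone. An unnamed feature, XM_003642095.1 (chromosome 13, 16539837 to 16561291), shares 7874 bases with HSPA4. Its counts came to between 92.45% and 94.4% of those of HSPA4 in the 5 libraries, and it had a log2 fold change of -0.58 (SE 0.06). Counts of this overlapping pair cannot be assigned to either feature, so the fall is that of the locus. A second identifier, XM_003642094.1, stands at the same interval as HSPA4 with equal counts and was treated as the same measurement.

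Among 5 measured HSP70 family genes outside the 3 above, 3 fell and 2 did not pass. Their median log2 fold change was -0.23 against 0.00 over all features. For this list and those below, the shares over all features tested are 22.6% that rose and 23.7% that fell. For counts with library size alone, the shares are 12.6% that rose and 40.9% that fell. HSPA5, the endoplasmic reticulum chaperone BiP, had 415 and 433 CPM in the CAP-H off libraries against 570 to 626 CPM in the CAP-H on libraries (log2 fold change -0.52, SE 0.06, adjusted p = 3.2e-06). The mitochondrial HSPA9 fell by 0.23 in log2 units (SE 0.05, adjusted p = 0.0011), and the microsomal HSPA13 by 0.44 (SE 0.10, adjusted p = 0.0017). HSPH1, a second HSP110 gene, had 188 and 172 CPM against 160 to 174 CPM, and the groups overlapped (log2 fold change 0.11, adjusted p = 0.19). All 3 falls held with library size alone, where 4 of the 5 fell.

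Of the 25 measured J-domain proteins and HSP70 co-chaperones, 6 rose, 7 fell and 12 did not pass, with a median of 0.04. That is 24% and 28%, beside 22.6% and 23.7% of all features. DNAJA4 and DNAJA1, which hand unfolded chains to HSP70, rose by 0.34 (SE 0.06, adjusted p = 0.00025) and 0.31 (SE 0.06, adjusted p = 5e-04). The DNAJA genes did not share a direction, since DNAJA2 fell (log2 fold change -0.17, SE 0.06, adjusted p = 0.026). DNAJA2 also passed as lower with library size alone, and it was named after its value was seen. DNAJA1 held 109 and 96.2 CPM in the CAP-H off libraries, against 82.2 to 83.1 CPM in the CAP-H on libraries. DNAJC2, a partner of HSP70 on the ribosome, fell by 0.26 (SE 0.06, adjusted p = 0.0016) and DNAJC16 by 0.47 (SE 0.11, adjusted p = 0.0018). DNAJC2 overlaps another feature. With library size alone 2 of these genes rose and 11 fell, and DNAJA1 lost its call (0.13, adjusted p = 0.087). Leaving out CAP-H off replicate 1 left 3 rises, and leaving out either CAP-H off library left 4 falls, as did DESeq2.

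HSP90 takes over clients that HSP70 has begun to fold. Of the 10 measured genes of HSP90 and its co-chaperones, 4 rose, 1 fell and 5 did not pass, with a median of 0.10. HSP90AA1, the stress-linked HSP90 gene, stood at 3405 and 3336 CPM in the CAP-H off libraries and at 3051 to 3175 CPM in the CAP-H on libraries. Its log2 fold change of 0.12 (SE 0.03, adjusted p = 0.0030) turned to -0.06 (adjusted p = 0.032) with library size alone, so its direction depends on the scaling. SUGT1 (0.15, adjusted p = 0.038) and TTC4 (0.16, adjusted p = 0.040) rose by little, and turned to -0.03 and -0.02 with library size alone, where neither passed. PPID, a prolyl isomerase that binds HSP90, fell by 0.24 (SE 0.07, adjusted p = 0.0070; adjusted p = 0.062 without CAP-H off replicate 3), and it overlaps another feature. Calls in this list depended on the setting: 0 rose with library size alone, with no filter on low counts, by edgeR's exact test or without CAP-H off replicate 1, 2 without CAP-H off replicate 3, without CAP-H on replicate 1 or without CAP-H on replicate 3, and 1 without CAP-H on replicate 2. DESeq2 gave 2 rises. Falls numbered 4 with library size alone, 2 when replicate 1 of either group was left out or by edgeR's exact test, and 0 without CAP-H off replicate 3.

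Heat shock factors are the transcription factors that switch on HSP70 genes under stress, and small heat shock proteins are among the genes they act on. Of 16 listed genes of these kinds 10 were measured. No row matched HSF1 or HSF3 by symbol, so nothing can be said of these factors. Only 3 of the 10 passed the filter on low counts, and 0 of them changed (1 at an unadjusted p under 0.05). In other settings 1 rose by edgeR's exact test or without CAP-H on replicate 1, and 1 fell with library size alone. HSBP1, which binds heat shock factor 1, was the gene that fell under that scaling (-0.23, adjusted p = 0.0061), against -0.05 (adjusted p = 0.57) with TMM. HSF2 had 219 and 213 CPM in the CAP-H off libraries against 195 to 216 CPM in the CAP-H on libraries (log2 fold change 0.08, adjusted p = 0.32; -0.10 with library size alone). SERPINH1, the collagen chaperone HSP47, had 3.2 and 3.64 CPM against 1.71 to 2.34 CPM (0.74, SE 0.30, adjusted p = 0.051). HSPB1, HSPB2, HSPB3, HSPB7, HSPB9, CRYAB and HSF4 stayed below 1 CPM in every library, so they were not tested.

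**Figure D2:**
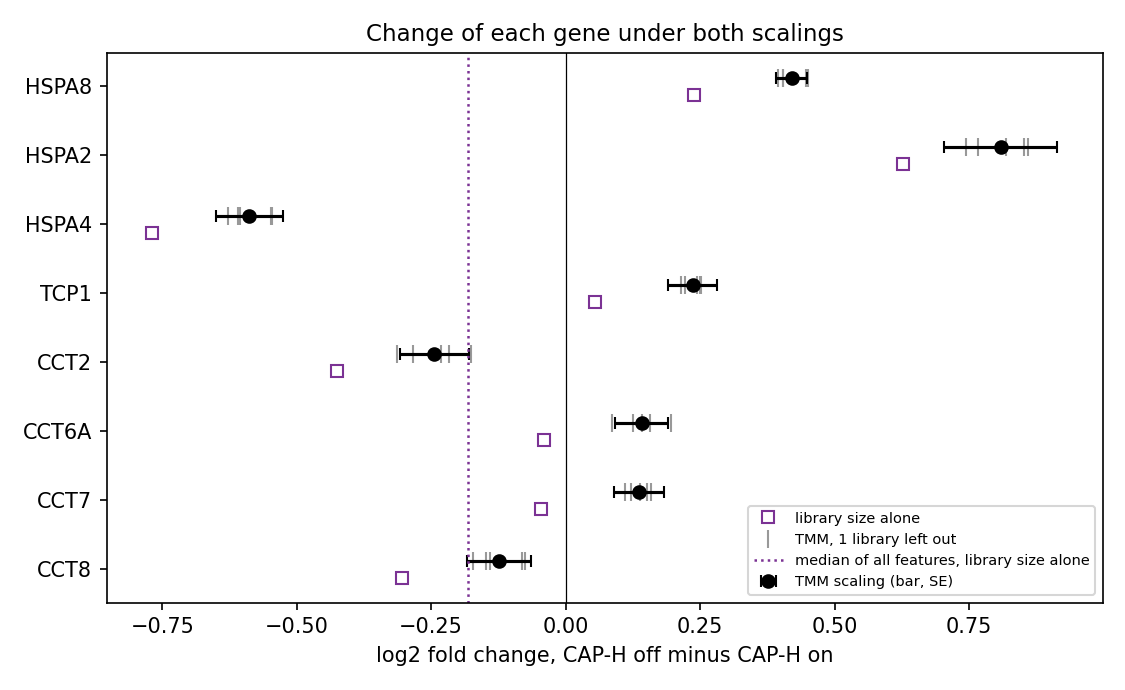
Log2 fold change (x axis, CAP-H off minus CAP-H on) of the 8 genes with TMM scaling (black, bar 1 SE), with 1 library left out (grey ticks) and with library size alone (open squares). HSPA8, HSPA2 and TCP1 stay right of 0 and HSPA4, CCT2 and CCT8 left of 0 under both scalings, whereas CCT6A and CCT7 cross 0 with library size alone. The dotted line marks the median of all features under library size alone.

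Under TMM scaling the 5 chaperonin genes had smaller fold changes than the 3 HSP70 genes, and not in 1 direction. With library size alone CCT2 and CCT8 changed by more than HSPA8. TCP1, the alpha subunit (NM_001006405.1, chromosome 3, 44874172 to 44881974), stood at 899.7 and 885.5 CPM in CAP-H off replicates 1 and 3, against 735, 767 and 772 CPM in CAP-H on replicates 1, 2 and 3. TCP1 rose 1.18-fold (log2 fold change 0.24, SE 0.05, adjusted p = 0.00061). The groups were clearly apart under TMM scaling, but with library size alone the change was 0.055 and did not pass (adjusted p = 0.28).

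CCT2, the beta subunit (NM_001012533.2, chromosome 1, 35461476 to 35473437), had 386 and 353 CPM in CAP-H off replicates 1 and 3, against 413, 454 and 445 CPM in CAP-H on replicates 1, 2 and 3. Both CAP-H off libraries were below all CAP-H on libraries. CCT2 fell by 0.24 in log2 units (SE 0.06, adjusted p = 0.0055), to 0.844 of the CAP-H on level. The fall was larger with library size alone, at -0.42 (adjusted p = 9.2e-06). With the replicate number as a block, a pairing that the labels do not state, it was -0.22 and did not pass (adjusted p = 0.058).

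CCT6A, the zeta subunit (NM_001006216.1, chromosome 19, 4884980 to 4891208), stood at 839.7 and 782 CPM in CAP-H off replicates 1 and 3, against 719, 736 and 751 CPM in CAP-H on replicates 1, 2 and 3. CCT7, the eta subunit (NM_001031541.1, chromosome 4, 89215332 to 89225367), stood at 897 and 883 CPM in CAP-H off replicates 1 and 3, against 780.3, 836 and 814 CPM in CAP-H on replicates 1, 2 and 3. Both genes were higher in each CAP-H off library, though by little. CCT6A rose 1.10-fold (log2 fold change 0.14, SE 0.05, adjusted p = 0.029) and CCT7 rose 1.10-fold (0.14, SE 0.05, adjusted p = 0.027). They came to -0.040 (adjusted p = 0.49) and -0.045 (adjusted p = 0.39) with library size alone. The call of CCT6A was lost when CAP-H off replicate 1 (0.086, adjusted p = 0.34), CAP-H on replicate 1 (adjusted p = 0.056) or CAP-H on replicate 2 (adjusted p = 0.082) was left out. The call of CCT7 was lost when CAP-H off replicate 1 (adjusted p = 0.17), CAP-H off replicate 3 (adjusted p = 0.075), CAP-H on replicate 1 (adjusted p = 0.060) or CAP-H on replicate 3 (adjusted p = 0.057) was left out. Both calls were also lost by edgeR's exact test (adjusted p = 0.23 for CCT6A and 0.24 for CCT7) and with no filter on low counts (adjusted p = 0.14 and 0.13). With the replicate number as a block CCT6A lost its call (adjusted p = 0.10) and CCT7 kept it (adjusted p = 0.049).

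CCT8, the theta subunit (NM_001004389.1, chromosome 1, 103338187 to 103348897), had 508 and 477 CPM in CAP-H off replicates 1 and 3, against 518, 568 and 525 CPM in CAP-H on replicates 1, 2 and 3. The groups lay apart by a small margin. The log2 fold change of -0.12 (SE 0.06, adjusted p = 0.097) did not pass, though it did with library size alone (-0.30, adjusted p = 0.00013). A pair of further ring subunits outside the 8 genes, CCT4 and CCT5, were measured as well. CCT3 was looked for by symbol, and no row matched it, so it may be counted in a row without a symbol. CCT5 had 1045 and 1010 CPM in the CAP-H off libraries against 1059 to 1105 CPM in the CAP-H on libraries (log2 fold change -0.07, SE 0.04, adjusted p = 0.18). CCT4, which overlaps a neighbouring feature, had 605 and 581 CPM against 588 to 624.5 CPM (-0.04, SE 0.05, adjusted p = 0.56). With library size alone both passed as lower, at -0.25 and -0.22.

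Since the subunits stand in fixed numbers in 1 ring, their transcripts were also compared within each library. Scaling has no effect on their order and ratios within a library. The levels given below are TMM scaled, and their differences between groups do depend on the scaling. The 5 subunit genes were not equal in level. Per kb of genomic span, the only length at hand, CCT6A was highest with 135 and 125.5 CPM per kb in the CAP-H off libraries and 115 to 121 in the CAP-H on libraries. TCP1 followed with 115 and 113.5 CPM per kb in the CAP-H off libraries and 94.2 to 98.9 in the CAP-H on libraries, and then CCT7 with 89.4 and 88.0 against 77.8 to 83.3. CCT8 had 47.4 and 44.6 CPM per kb in the CAP-H off libraries against 48.4 to 53.0 in the CAP-H on libraries, and CCT2 was lowest with 32.2 and 29.5 against 34.5 to 37.9. The order was the same in all 5 libraries, and neighbours in it did not overlap within either group. A span includes introns, so these values order the genes only roughly. On CPM without a length the order differed. On that scale TCP1 and CCT7 overlapped in the CAP-H off libraries, and TCP1 and CCT6A in the CAP-H on libraries. On the same per kb scale HSPA8 stood at 1211 and 1174 in the CAP-H off libraries against 871 to 929.5 in the CAP-H on libraries. HSPA2 had 15.3 and 14.5 CPM per kb in the CAP-H off libraries, above HSPA4 with 7.08 and 6.73. In the CAP-H on libraries HSPA2 had 7.87 to 9.12, below HSPA4 with 10.1 to 11. The spans were 2320 bases for HSPA2 and 17010 for HSPA4. By CPM without a length HSPA4 was higher than HSPA2 in all 5 libraries, so the change of order rests on the division by span.

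The subunit genes were less even in the CAP-H off libraries. The coefficient of variation of CPM per kb of span over the 5 subunit genes was 52.0% and 52.4% in the CAP-H off libraries, against 44.5%, 41.9% and 44.6% in the CAP-H on libraries, a difference of 8.54 percentage points. An exact two-sided permutation test over the libraries gave p = 0.1, the smallest that the 10 splits of 3 against 2 libraries allow, so the design cannot pass a threshold of 0.05. Without division by length the values were 34.2% and 36.4% in the CAP-H off libraries against 23.3% to 25.1% in the CAP-H on libraries. With CCT4 and CCT5 added the gap was smaller, at 43.3% and 43.7% against 38.2% to 41.5%. The highest of the 5 genes by CPM was 2.33 and 2.51 times the lowest in the CAP-H off libraries and 1.83 to 1.89 times in the CAP-H on libraries.

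In the CAP-H off libraries TCP1 took a larger share of the 5 genes' counts, and CCT2 and CCT8 took smaller ones. TCP1 made up 25.5% (95% Wilson interval 25.1 to 25.9) and 26.2% (25.7 to 26.6) of the 5 genes' counts in CAP-H off replicates 1 and 3, against 23.2% (22.9 to 23.5), 22.8% (22.5 to 23.2) and 23.3% (22.9 to 23.8) in CAP-H on replicates 1, 2 and 3. CCT2 made up 10.9% (10.6 to 11.2) and 10.4% (10.1 to 10.8) in the CAP-H off libraries, against 13.1% (12.8 to 13.3), 13.5% (13.2 to 13.8) and 13.5% (13.1 to 13.8) in the CAP-H on libraries. The intervals cover counting error only, and the 2 groups lay apart for both genes. The share of CCT8 was 14.4% (14.1 to 14.7) and 14.1% (13.8 to 14.5) in the CAP-H off libraries against 15.9% to 16.9% in the CAP-H on libraries. The mean share differed by 2.71 percentage points for TCP1, -2.66 for CCT2 and -2.125 for CCT8, and by 1.02 for CCT6A and 1.05 for CCT7. Each of the 5 shares gave p = 0.1 in the exact permutation test, two-sided, which stayed 0.1 after Benjamini-Hochberg adjustment over the 5. Relative to the summed counts of these genes, 63.4% of all features tested also had groups that did not overlap, so lying apart was common.

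**Figure D3:**
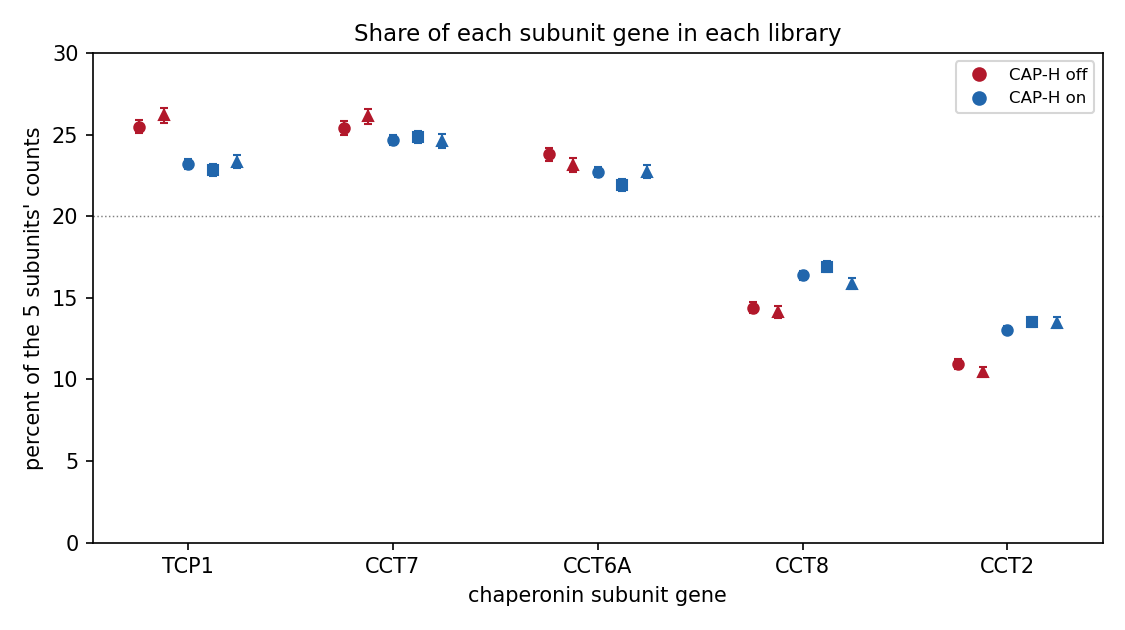
Share of each chaperonin gene in the counts of the 5 genes (y axis, percent) in the 2 CAP-H off libraries (red) and the 3 CAP-H on libraries (blue; circle, replicate 1, square, replicate 2, triangle, replicate 3), with 95% Wilson intervals for counting error; the dotted line marks an equal share of 20%. TCP1 is higher and CCT2 and CCT8 are lower in the CAP-H off libraries by more than these intervals.

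The 5 subunit genes together held 3530 and 3381 CPM in the CAP-H off libraries and 3165, 3361 and 3307 CPM in the CAP-H on libraries, the groups lying apart by a small margin (exact permutation test, two-sided, p = 0.2). With library size alone the sums were 3274 and 3129 CPM in the CAP-H off libraries, below 3375 to 3506 CPM in the CAP-H on libraries, so no direction can be given for the ring as a whole. HSPA8 was higher relative to the ring in the CAP-H off libraries. Its CPM was 1.70 and 1.72 times the summed 5 subunit genes in the CAP-H off libraries, against 1.36, 1.37 and 1.31 times in the CAP-H on libraries. The log2 ratio differed by 0.34, with p = 0.1 in the exact permutation test, two-sided, again the smallest possible, and by 0.39 with CCT4 and CCT5 added to the sum.

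Proteins that serve the chaperonin and proteins folded by it were read beside it. Of 5 measured partner genes, which include CCT4 and CCT5, 1 rose and 4 did not pass, with a median of -0.06. The gene that rose was PDCL3, a phosducin-like co-chaperone of the ring, with 63.4 and 59.8 CPM in the CAP-H off libraries against 46.9 to 55.5 CPM in the CAP-H on libraries (log2 fold change 0.26, SE 0.08, adjusted p = 0.013). This call did not hold when replicate 1 of either group was left out (adjusted p = 0.11 for CAP-H off and 0.060 for CAP-H on). Nor did it hold with library size alone (0.08, adjusted p = 0.42), where 4 of the 5 genes fell. TXNDC9, a thioredoxin-like partner, had a log2 fold change of -0.09 (adjusted p = 0.42), and came to -0.25 (adjusted p = 0.048) when CAP-H off replicate 1 was left out and to 0.05 when CAP-H off replicate 3 was.

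Among 11 tested client genes of the ring, namely actins, tubulins, their relatives and CDC20, 4 rose, 3 fell and 4 did not pass. The median was 0.02. CDC20, which is neither an actin nor a tubulin, was among those that rose (0.24, adjusted p = 0.0065). Its call was lost with library size alone (0.06, adjusted p = 0.42). The actin genes went both ways. ACTB, cytoplasmic beta-actin, had 557 and 572 CPM in the CAP-H off libraries against 1524 to 1679 CPM in the CAP-H on libraries (log2 fold change -1.52, SE 0.05, adjusted p = 3.3e-12), and it overlaps another feature. The actin-related genes ACTR2 and ACTR3, of the complex that branches actin filaments, fell by 0.76 and 0.64. TUBB4B, a beta-tubulin, rose by 0.37 (SE 0.05, adjusted p = 9.6e-06), with 1284 and 1296 CPM in the CAP-H off libraries against 938 to 1046 CPM in the CAP-H on libraries, and it overlaps another feature. ACTG1, cytoplasmic gamma-actin, rose by 0.33 (SE 0.05, adjusted p = 0.00012), with 102 and 109.5 CPM against 83 to 85.4 CPM, and ACTR1A, an actin-related gene of dynactin, had a log2 fold change of 0.02 (adjusted p = 0.85). The other tested tubulin genes did not share 1 direction. TUBE1 rose by 0.49 (SE 0.13, adjusted p = 0.0064), while TUBB2A (-0.16), TUBB2B (-0.12) and TUBB1 (0.05) did not pass. With library size alone TUBE1 lost its call (0.31, adjusted p = 0.067), and TUBB2A (-0.34) and TUBB2B (-0.30) fell. These tubulin genes, ACTG1, ACTR1A and CDC20 were named after their values were seen. The falls of ACTB, ACTR2 and ACTR3 and the rises of TUBB4B and ACTG1 (0.15, adjusted p = 0.031) held with library size alone, where 2 of the 11 rose and 6 fell. The beta-actin fall was several times the size of any change among the ring's own genes.

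Of 3 measured mitochondrial chaperone genes, 1 fell, the protease and chaperone gene LONP1, and 2 did not pass (LONP1 -0.27, SE 0.06, adjusted p = 0.0028). HSPD1, the chaperonin of mitochondria, had 1527 and 1478 CPM in the CAP-H off libraries against 1532 to 1619 CPM in the CAP-H on libraries. Its log2 fold change of -0.07 (SE 0.04, adjusted p = 0.13) did not pass, but passed when CAP-H on replicate 1 was left out (-0.10, adjusted p = 0.029) and when scaled by library size alone (-0.26, adjusted p = 3.5e-06). CLPX had -0.04 (adjusted p = 0.69). Over all these lists together, client genes included, 15 of 62 tested genes rose and 15 fell, 24.2% each. Under TMM scaling these shares were close to the 22.6% and 23.7% of all features. With library size alone 4 of the 62 rose and 33 fell, where 12.6% of all features rose and 40.9% fell.

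**Figure D4:**
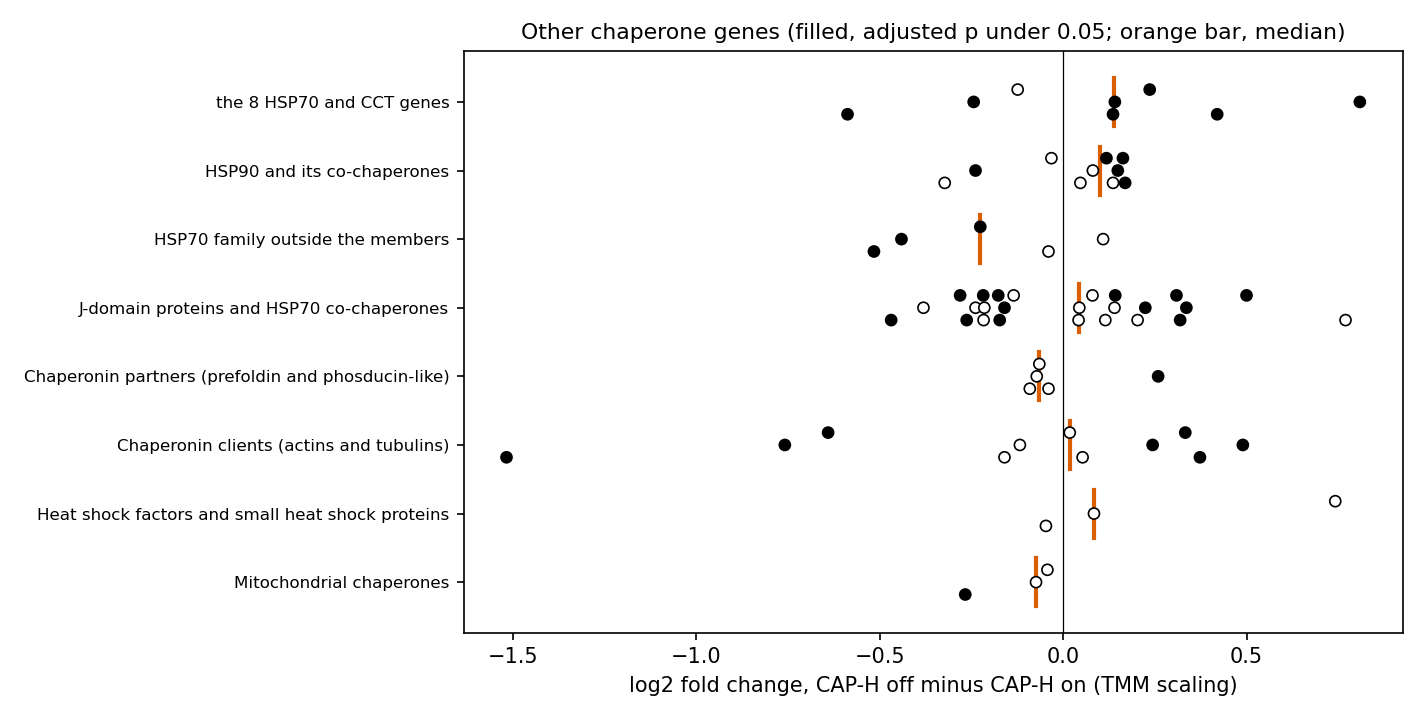
Log2 fold change (x axis, CAP-H off minus CAP-H on, TMM scaling) of each tested gene, 1 point a gene, in the 8 HSP70 and chaperonin genes (top) and in 7 lists of other chaperone genes and clients. Filled points passed an adjusted p of 0.05 and orange bars mark medians; most lists have members on both sides of 0, and ACTB at -1.52 stands farthest out.

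Of the 16 features that flank the 8 genes, 11 were tested, and 5 rose, 3 fell and 3 did not pass. Among all features tested 46.3% changed, 22.6% higher and 23.7% lower in the CAP-H off libraries. TCP1 lies between MRPL18, 657 bases away, and ACAT2, 11 bases away. Both neighbours rose, MRPL18 by 0.42 (SE 0.06, adjusted p = 2.2e-05) and ACAT2 by 0.36 (SE 0.06, adjusted p = 6.7e-05), as TCP1 did. PRADC1 lies 288 bases from CCT7 and rose by 0.63 (SE 0.08, adjusted p = 2.0e-05). The closest feature to HSPA4 on 1 side, XM_003642096.1 at 386 bases, fell by 0.47 (SE 0.07), and it overlaps XM_003642095.1. ZCCHC10 on the other side rose by 0.30 (SE 0.07), a call lost with library size alone (0.12, adjusted p = 0.17). PSPH, 4136 bases from CCT6A, fell by 1.31 (SE 0.06) while CCT6A rose, and it overlaps another feature. SUMF2 on the other side of CCT6A (0.42, adjusted p = 0.037; 0.13 without CAP-H off replicate 3) rose, and USP16 beside CCT8 (-0.14, adjusted p = 0.049) fell, but leaving out single libraries ended both calls. Neighbours thus did not always share a direction. Whether reads of adjoining genes reached these counts was not tested.

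The 3 genes whose log2 CPM profile over the 5 libraries was closest to that of HSPA8 were ZNF706, ARFGAP2 and NEK2, with root mean square differences of 0.016, 0.020 and 0.022 among 4358 candidates. For the summed chaperonin genes they were GTPBP4, RNF7 and NFS1, at 0.012, 0.013 and 0.014. With 5 libraries in 2 groups these are mostly genes with the same difference between groups, and the measure is a description only.

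The authors' deposited table does not state its direction. It lists 3 of the 8 genes and not the other 5, and it lists 22.3% of all 17036 rows. HSPA4 is listed under both of its identifiers. Of 16143 features only 10079 passed the filter used here, as all 8 genes did. A share over all rows is therefore not a like background for these genes. The authors' deposited table gives HSPA2 a log2 fold change of 0.76, HSPA4 -0.70 and CCT2 -0.31. The largest adjusted p in the authors' deposited table is 0.05, so genes not listed may be those that did not pass. HSPA8 is not listed there. Here its groups lay apart, as in 64.9% of all features tested, and it passed by edgeR's exact test (adjusted p = 1.4e-05).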

How the data were processed

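Counts per RefSeq transcript on galGal4 were deposited for 5 DT40 libraries, and the tools listed in the submitters' processing notes, with no roles, are Bowtie, TopHat2 2.0.8b, edgeR 3.2.3 and FastQC. How reads were counted, stranded and filtered is not given in the sources used here, and the smallest deposited count was 1. Per the file headers, the authors' deposited table holds a log2 fold change, a mean CPM on the log2 scale, a p-value before and after adjustment, and a likelihood ratio score, which was not used. Symbols came from a RefSeq table of assembly GRCg7b (8905 of 17036 rows matched, 52.3%). A listed gene is called measured where a row matched its symbol, so other listed genes may be counted in unmatched rows. Identifiers sharing an interval and its counts were merged, leaving 16143 features.

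After filterByExpr and TMM scaling, the quasi-likelihood test of edgeR 4.0.16 (R 4.3.3) was run on the counts without covariates, with Benjamini-Hochberg adjustment over 10079 features and a threshold of 0.05. All 8 genes passed the filter. CPM are from edgeR with TMM factors of 0.927 to 1.07, and SE is the log2 fold change over the root of F. The method was tested on simulated data. The simulation changed far fewer features than were called here, in equal numbers up and down, so it does not test the choice of scaling. Shares and ratios were compared with exact permutation tests in scipy 1.17.1. Coding lengths were planned for the subunit comparison but were not used here, and genomic span took their place. Separate cultures are not stated for the replicates, and p-values then reflect the spread between the libraries alone, which may be technical. No replicate pair agreed within sampling noise (mean chi-square per feature of 11 between the CAP-H off libraries and 3.28 to 5.09 between the CAP-H on libraries).

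The genes and lists were chosen with earlier results of these data known. Named were the 8 genes, the 4 members of each list with the lowest p (fewer in short lists), nearest neighbours and the 3 closest profiles to HSPA8 and to the summed subunits. Alternatives were library size alone, DESeq2 1.42.0, no filter, edgeR's exact test, a replicate block and each library left out.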

Additional observations from a re-analysis of the deposited data

How the results depend on the processing

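HSPA8, HSPA2 and HSPA4 kept their direction and their call under DESeq2, edgeR's exact test, no filter on low counts, library size alone, the replicate block and each library left out. With library size alone 1272 features were higher and 4119 lower, TCP1 lost its call at 0.055, CCT6A turned to -0.040 and CCT7 to -0.045, and CCT8 passed at -0.30. Of the other chaperone genes 4 rose and 33 fell with library size alone, and 6 rose without CAP-H off replicate 1 (lowest and highest with a library left out, 6 and 13 that rose and 11 and 17 that fell). CCT6A lost its call with no filter (0.11), by edgeR's exact test (0.14) and with a library left out (0.086 to 0.196), and CCT7 with no filter (0.10), by edgeR's exact test (0.14) and with a library left out (0.11 to 0.16). The cause was not tested.

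The replicate numbers 1 and 3 occur in both groups, but the labels do not say that they pair libraries, and deviations of same-numbered libraries from their group means correlated at -0.01 and -0.03. With the replicate block CCT2 came to -0.22 (adjusted p = 0.058) and CCT6A to 0.14 (adjusted p = 0.10), without a call, CLPX turned to 0.055, 1 gene of the HSP90 list rose, and 3856 features changed against 4668.

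Among the other named genes, library size alone turned HSP90AA1 to -0.063, SUGT1 to -0.033, TTC4 to -0.019, HSPH1 to -0.072, HSF2 to -0.097, GTPBP4 to -0.117, RNF7 to -0.113 and NFS1 to -0.088. Values near 0 turned sign for XM_001234834.2, next to HSPA2 (0.002 with DESeq2, -0.14 to 0.12 with a library left out), CLPX (-0.146 to 0.055 with a library left out) and TXNDC9 (-0.253 to 0.052 with a library left out). With 2 CAP-H off libraries, and 1 when either is left out, the lone library is assumed to vary like the others.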
